A study of Mus musculus with 9 samples.

Results

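Disp1, Scube1, Scube2, Scube3, Hhat and Lrp2 act on the hedgehog ligand outside its signalling cascade, from its lipid modification in the sending cell to its uptake by other cells. The 6 genes were picked by symbol among the 54532 genes of the table, each matched 1 row, and 6 of 6 passed the low-count filter. They were counted in sorted cells of mouse neural tube organoids, which are clonal cultures grown in Matrigel and N2B27 medium from a single embryonic stem cell line, R1. Cells of every group carried FoxA2-Venus, a fluorescent reporter for the floor plate factor Foxa2, and FACS split them by high or low GFP-channel signal, 66 h after the Day 2 medium change. The 3 groups hold 3 biological replicates each: cells sorted as GFP+ from medium with SAG (SAG GFP+), cells sorted as GFP+ from medium with all-trans retinoic acid (RA GFP+), and cells sorted as GFP- from that same medium (RA GFP-). SAG is an agonist of Smoothened, the membrane protein that passes the hedgehog signal into the cell. The RA dose is given as 250 nM in one place and 250 µM in another. The label of the SAG medium names no RA, and no SAG dose was found in the sources used here. No GFP- population from SAG medium was analysed here, so the effects of SAG and of RA cannot be told apart between the media.

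Hedgehog ligands such as Shh carry cholesterol and a palmitate group. Hhat is the acyltransferase that adds the palmitate in the sending cell, and Disp1 is the transporter-like membrane protein that frees the lipid-bearing ligand from it. Scube proteins are secreted and take the ligand up from Disp1, which makes it soluble. Lrp2, or megalin, is a very large endocytic receptor of the LDL receptor family that binds and internalises Shh and many other proteins. In the developing neural tube Shh is sent by the notochord and the floor plate, and it sets the ventral cell types by its dose.

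Levels are given as CPM, the count scaled to the size of its library. Foxa2, the gene of the sorted reporter, stood at 326, 212 and 205 CPM in SAG GFP+ libraries (replicates 1 to 3), 184, 157 and 133 CPM in RA GFP+ and 2.47, 1.33 and 2.51 CPM in RA GFP-. The neural progenitor genes Sox2 and Nes were present in every library, at or above 215 CPM and 68.7 CPM. The 6 pan-neural progenitor markers summed to 1007 to 1076 CPM in SAG GFP+, 337 to 514 CPM in RA GFP+ and 1027 to 1151 CPM in RA GFP-, and 6 of 6 were lower in RA GFP+ against RA GFP-, Sox2 by 1.55-fold and Nes by 2.71-fold. SAG GFP+ replicate 1 stood apart from its group, with the early mesoderm gene T at 110 CPM against 7.94 and 9.81 CPM in replicates 2 and 3, and the pluripotency gene Pou5f1 at 171 CPM against 37.4 and 39.3 CPM. Pairs of libraries correlated at 0.970 to 0.986 inside a group and at 0.887 to 0.951 across groups (Pearson's r of log2 CPM, over genes). In sorted bulk RNA, fewer cells of a type and less RNA per cell cannot be told apart.

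In RA GFP+ cells against RA GFP- cells, 3 of the 6 genes were called, meaning an edgeR adjusted p under 0.05. Disp1 and Lrp2 were higher, Scube2 was lower, and Scube1, Scube3 and Hhat did not pass the test. Of all 16772 genes tested in that comparison 16.9% were called, 8.49% as higher and 8.43% as lower. That is 2838 genes. With the replicate number as a block in the 6 RA libraries, 5240 of 16257 tested genes were called, 2615 as higher and 2625 as lower. The calls of the 6 genes were the same in that fit, and list counts with the block stand against that larger background. Counts of lists below come from the fit with no block. Where the block moved a list's count in RA GFP+ against RA GFP-, its count is given beside it, an alternative chosen after seeing the data. The median log2 fold change was 0.11 over the 6 genes and -0.018 over all tested genes. In SAG GFP+ cells against RA GFP+ cells, Scube3 was the single gene called, as lower, beside a background of 24.5% called, 9.78% higher and 14.8% lower. There the median was -0.30 over the 6 genes and -0.017 over all genes. In SAG GFP+ cells against RA GFP- cells, where sort and medium both differ, Disp1 and Lrp2 were higher and Scube2 and Scube3 lower. The background there was 28.5% called, 12% higher and 16.5% lower, and the medians were -0.04 over the 6 genes and -0.009 over all genes. These 3 comparisons share libraries and are not independent of each other. Groups did not overlap for 3, 2 and 4 of the 6 genes in the 3 comparisons, against 36.4%, 42.9% and 41.1% of all tested genes.

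**Figure D1:**
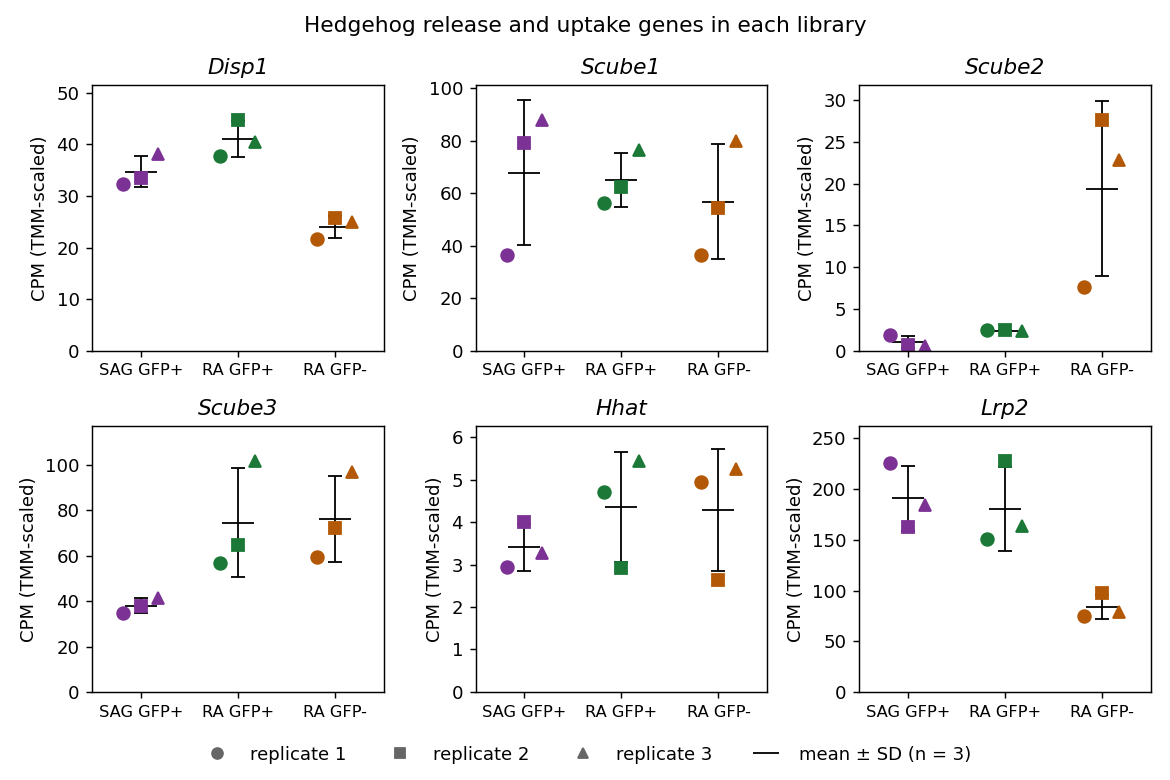
CPM of the 6 genes in each library (points, shaped by replicate number), with the mean and SD of each group of 3 as a line with bars; each panel has its own axis from 0. Disp1 and Lrp2 stand higher in both GFP+ groups than in RA GFP-, Scube2 stands at or under 2.43 CPM in both GFP+ groups, and Scube3 is low in SAG GFP+.

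**Figure D2:**
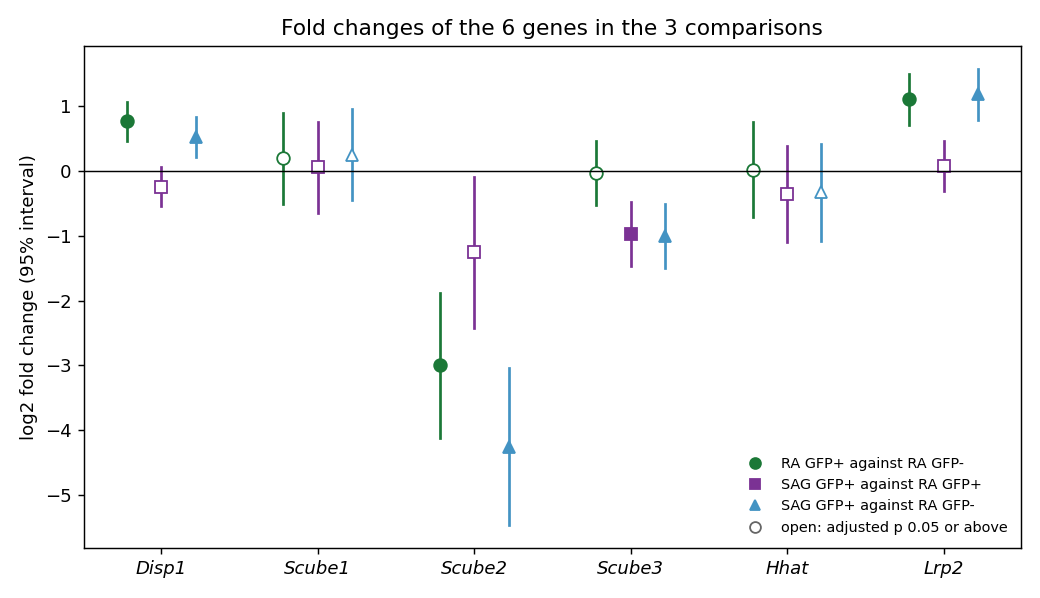
Log2 fold changes of the 6 genes with 95% intervals in the 3 comparisons, with filled symbols where the adjusted p was under 0.05. Scube2 has the lowest values of the 6 genes in each comparison, at -3.00, -1.25 and -4.25, and the value of -1.25 was not called.

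Hhat, the palmitoyltransferase, was not called in any of the 3 comparisons. Hhat (ENSMUSG00000037375, chromosome 1, 192496711 to 192771223, minus strand of GRCm38, the build of every position here) had 2.93, 4.01 and 3.27 CPM in SAG GFP+ libraries, 4.70, 2.92 and 5.44 CPM in RA GFP+ and 4.94, 2.63 and 5.25 CPM in RA GFP-. The groups overlapped in each comparison, and replicate 2 was the lowest library of both RA groups. RA GFP+ against RA GFP- gave a log2 fold change of 0.03 with a 95% interval of -0.71 to 0.76 (adjusted p = 0.973). SAG GFP+ against RA GFP+ gave -0.35, with an interval of -1.10 to 0.39 (adjusted p = 0.486). SAG GFP+ against RA GFP- gave -0.33, with an interval of -1.07 to 0.42 (adjusted p = 0.506). The counts behind Hhat were 69 to 156 per library.

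Disp1, which releases the ligand, was higher in both GFP+ groups than in RA GFP- cells. Disp1 (ENSMUSG00000030768, chromosome 1, 183086266 to 183221522, minus strand) stood at 32.4, 33.6 and 38.2 CPM in SAG GFP+ libraries, 37.9, 44.8 and 40.4 CPM in RA GFP+ and 21.6, 25.7 and 24.9 CPM in RA GFP-. Every GFP+ library lay above every GFP- library. Disp1 rose 1.71-fold in RA GFP+ against RA GFP- (log2 fold change 0.77, SE 0.14, adjusted p = 0.00288). It rose 1.44-fold in SAG GFP+ against RA GFP- (0.53, SE 0.14, adjusted p = 0.0145). Between the GFP+ groups, SAG against RA, the log2 fold change was -0.24 with an interval of -0.54 to 0.06 (adjusted p = 0.227), and the libraries overlapped. The SD was 3.03 CPM in SAG GFP+, 3.52 CPM in RA GFP+ and 2.14 CPM in RA GFP- libraries (n = 3 each).

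The 3 Scube genes, which encode carriers of released ligand, gave different calls. Scube2 (ENSMUSG00000007279, chromosome 7, 109798676 to 109865679, minus strand) stood at 1.87, 0.674 and 0.506 CPM in SAG GFP+ libraries, 2.43, 2.42 and 2.41 CPM in RA GFP+ and 7.63, 27.7 and 22.9 CPM in RA GFP-. The 3 groups did not overlap, and within RA GFP- replicate 1 stood far below the other replicates. Scube2 fell 8.0-fold in RA GFP+ against RA GFP- (log2 fold change -3.00, SE 0.51, adjusted p = 0.002). It fell 19.1-fold in SAG GFP+ against RA GFP- (-4.25, SE 0.55, adjusted p = 0.000191), and that log2 fold change was -4.998 without SAG GFP+ replicate 1. Between the GFP+ groups, SAG against RA, the log2 fold change was -1.25 with an interval of -2.42 to -0.09 and did not pass the adjusted test (adjusted p = 0.11). Without SAG GFP+ replicate 1, the highest Scube2 library of its group, that value was -2.004 (adjusted p = 0.0177). It was called too in DESeq2 (adjusted p = 0.0412), without the low-count filter (adjusted p = 0.00681) and with RA GFP- replicate 1 left out (adjusted p = 0.0475). Across its alternatives the adjusted p lay between 0.00681 and 0.309. The counts behind Scube2 were 46, 18 and 13 in SAG GFP+, 62, 72 and 69 in RA GFP+ and 216, 726 and 601 in RA GFP- libraries.

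Some marker lists of other cells ran the same way as Scube2 across the groups, and others did not. Of 8 pluripotency markers, 7 were lower and 0 higher in RA GFP+ against RA GFP-. Their summed level ran from 65.6 to 221 CPM in SAG GFP+, 67.1 to 78.3 CPM in RA GFP+ and 869 to 1293 CPM in RA GFP- libraries, and none of the 8 had 0 counts in a group. Of 6 tested dorsal and roof plate markers, 3 were lower and 0 higher in RA GFP+ against RA GFP-, and 5 were lower with the replicate block. Their summed level was 1.76 to 6.40 CPM in SAG GFP+, 25.5 to 51.8 CPM in RA GFP+ and 107 to 153 CPM in RA GFP-. Within RA GFP- libraries the pluripotency sum was highest in replicate 1 (1293 CPM), where Scube2 was lowest, and lowest in replicate 2 (869 CPM), where Scube2 was highest. Of 5 tested endothelium markers, 1 (Tek) was higher and 1 (Pecam1) lower in RA GFP+ against RA GFP-. The list summed to 1.84 to 2.32 CPM in SAG GFP+, 13.2 to 19.7 CPM in RA GFP+ and 48.4 to 73.7 CPM in RA GFP-, with Cdh5 at 0 counts in SAG GFP+. Emcn had 0 counts in SAG GFP+ and RA GFP- and 3 in RA GFP+. Pecam1 alone made up most of the RA GFP- sum, at 59.5, 40.7 and 68.4 CPM. In RA GFP- the others averaged 3.41 CPM (Tek), 2.29 (Kdr), 0.649 (Cdh5), 0.240 (Tie1) and 0 (Emcn), so that sum says little of them. Surface ectoderm markers, 2 of 4 tested higher (Krt8 and Trp63) and 2 lower (Tfap2c and Grhl3) in RA GFP+ against RA GFP-, split as well. They summed to 8.56 to 22.3 CPM in SAG GFP+, 78.1 to 103 CPM in RA GFP+ and 144 to 177 CPM in RA GFP-. Krt14 had 0 counts in both GFP+ groups and 3 in RA GFP-. Tfap2c alone made up most of the RA GFP- sum, at 107, 83.1 and 121 CPM. In RA GFP- the others averaged 32.5 CPM (Krt8), 22.6 (Grhl3), 0.124 (Trp63), 0.120 (Krt5) and 0.0381 (Krt14). Pan-neural progenitor markers, with the sums given above, and neuron markers were lower, 6 of 6 each, in RA GFP+ against RA GFP-. The neuron markers summed to 342 to 503 CPM in SAG GFP+, where Scube2 was lowest, 77.3 to 95.5 CPM in RA GFP+ and 290 to 424 CPM in RA GFP-. The part of any of these cell types in the Scube2 differences was not tested.

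Scube3 was lower in SAG GFP+ cells than in both RA groups. Scube3 (ENSMUSG00000038677, chromosome 17, 28142141 to 28174854, plus strand) stood at 34.7, 37.7 and 41.6 CPM in SAG GFP+ libraries, 56.9, 64.8 and 102 CPM in RA GFP+ and 59.5, 72.2 and 96.8 CPM in RA GFP-. Each SAG library lay below each RA library, and the RA groups overlapped across their range. Scube3 fell 1.96-fold in SAG GFP+ against RA GFP+ (log2 fold change -0.97, SE 0.23, adjusted p = 0.00916). It fell 2.004-fold in SAG GFP+ against RA GFP- (log2 fold change -1.003, SE 0.23, adjusted p = 0.00675). RA GFP+ against RA GFP- gave -0.03, with an interval of -0.52 to 0.46 (adjusted p = 0.946). In SAG GFP+ against RA GFP+, 5 of 6 neuron markers were higher and 0 lower, 5 of 6 neural progenitor markers higher and 1 (Pax6) lower, and 2 of 4 ventral progenitor markers higher and 0 lower. Of 10 endoderm markers 1 (Cxcr4) was higher and 6 lower. Lower, with 0 higher, were 4 of 9 mesenchyme, 4 of 5 endothelium, 3 of 4 surface ectoderm and 3 of 6 dorsal markers. Of 8 pluripotency markers 2 were higher and 5 lower, of 7 floor plate markers 1 was higher and 3 lower, of 3 node and notochord markers 1 was higher and 1 lower, and of 5 neural crest markers 0 were higher and 1 lower. The part of these cell types in the Scube3 difference was not tested. Of the annotated exon bases of Scube3 198, or 2.24%, are shared with AC126937.2 on the opposite strand, which had 644 counts over the 9 libraries against 15348 for Scube3, and the strand setting of the counting is not known here.

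Scube1 was not called in any of the 3 comparisons. Scube1 (ENSMUSG00000016763, chromosome 15, 83604999 to 83725021, minus strand) stood at 36.5, 79.0 and 88.1 CPM in SAG GFP+ libraries, 56.4, 62.2 and 76.7 CPM in RA GFP+ and 36.3, 54.3 and 79.9 CPM in RA GFP-. The groups overlapped almost fully, and replicate 1 was the lowest and replicate 3 the highest library in each of them. RA GFP+ against RA GFP- gave a log2 fold change of 0.20, with an interval of -0.51 to 0.90 (adjusted p = 0.738). SAG GFP+ against RA GFP+ gave 0.06, with an interval of -0.64 to 0.76 (adjusted p = 0.915). SAG GFP+ against RA GFP- gave 0.26, with an interval of -0.45 to 0.96 (adjusted p = 0.588).

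Per kilobase of exon, the Scube mRNA of the groups differed in make-up. The 3 genes summed to 8.09, 12.5 and 13.8 CPM per kb in SAG GFP+ libraries, 12.8, 14.2 and 19.9 CPM per kb in RA GFP+ and 12.3, 20.3 and 24.6 CPM per kb in RA GFP-, so the totals of the groups overlapped. Scube2 made up 5.57%, 1.30% and 0.884% of that sum in SAG GFP+, 4.59%, 4.09% and 2.91% in RA GFP+ and 15.0%, 32.7% and 22.4% in RA GFP-. Each RA GFP- library had a higher Scube2 share than each GFP+ library. Scube1 made up 45.9%, 64.5% and 65.0% in SAG GFP+ and 45.0%, 44.5% and 39.2% in RA GFP+ libraries, against 30.2%, 27.1% and 33.1% in RA GFP-. Scube3 made up 48.5%, 34.2% and 34.1% in SAG GFP+, 50.4%, 51.4% and 57.9% in RA GFP+ and 54.9%, 40.1% and 44.5% in RA GFP-. These shares are a description with no test, and shares of 1 sum move against each other by construction.

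**Figure D3:**
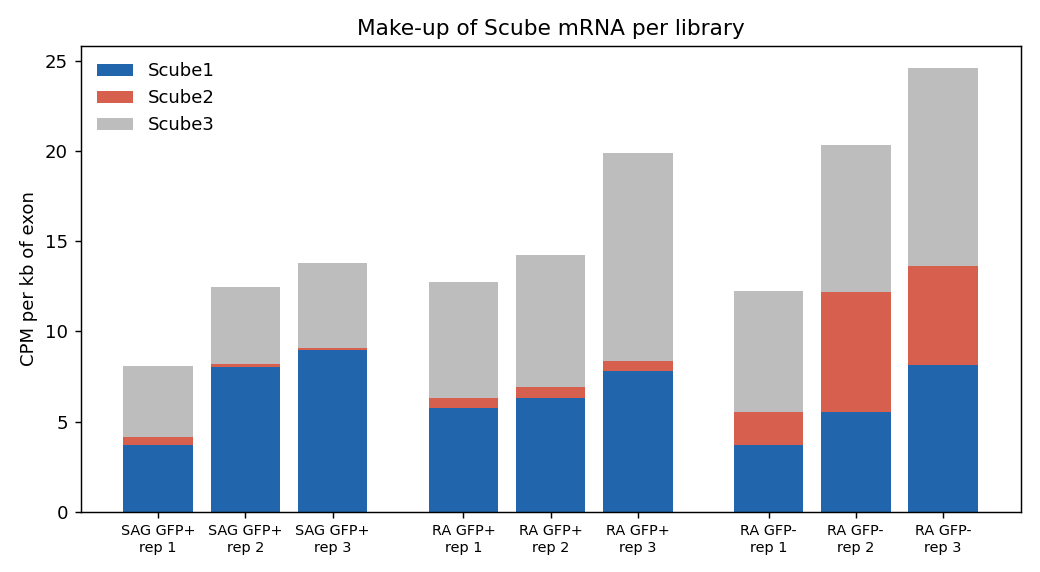
Stacked bars of Scube1, Scube2 and Scube3 in CPM per kb of annotated exon in each of the 9 libraries. The Scube2 part is 15.0 to 32.7% of the bar in RA GFP- libraries and at most 5.57% in the 6 GFP+ libraries.

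Lrp2, the uptake receptor, was higher in both GFP+ groups than in RA GFP- cells. Lrp2 (ENSMUSG00000027070, chromosome 2, 69424340 to 69586065, minus strand) stood at 225, 162 and 185 CPM in SAG GFP+ libraries, 151, 228 and 164 CPM in RA GFP+ and 74.9, 97.7 and 79.1 CPM in RA GFP-. Each GFP+ library lay above each GFP- library, and the GFP+ groups overlapped. Lrp2 rose 2.16-fold in RA GFP+ against RA GFP- (log2 fold change 1.11, SE 0.18, adjusted p = 0.00159). It rose 2.27-fold in SAG GFP+ against RA GFP- (1.19, SE 0.18, adjusted p = 0.000594). SAG GFP+ against RA GFP+ gave 0.08, with an interval of -0.31 to 0.47 (adjusted p = 0.79).

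Disp1 and Lrp2, the pair that was higher in both GFP+ groups, and Scube2, which was lower in both, are shown here by the bases upstream of their start. The sequences are from RefSeq (GRCm38.p6), read 5′ to 3′ on the gene's strand, which is the minus strand for each, with CG dinucleotides in capitals. They span chr1:183221530-183221779 for Disp1, chr2:69586066-69586279 for Lrp2 and chr7:109865680-109865929 for Scube2.
Disp1: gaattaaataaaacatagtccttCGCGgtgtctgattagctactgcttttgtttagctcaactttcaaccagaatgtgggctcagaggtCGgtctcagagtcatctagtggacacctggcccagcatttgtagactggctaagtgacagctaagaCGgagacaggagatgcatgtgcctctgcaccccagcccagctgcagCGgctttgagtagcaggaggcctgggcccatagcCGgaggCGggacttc
Lrp2: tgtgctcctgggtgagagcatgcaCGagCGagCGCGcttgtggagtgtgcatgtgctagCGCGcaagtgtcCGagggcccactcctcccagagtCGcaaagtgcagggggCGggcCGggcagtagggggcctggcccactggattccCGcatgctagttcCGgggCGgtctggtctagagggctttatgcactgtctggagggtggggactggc
Scube2: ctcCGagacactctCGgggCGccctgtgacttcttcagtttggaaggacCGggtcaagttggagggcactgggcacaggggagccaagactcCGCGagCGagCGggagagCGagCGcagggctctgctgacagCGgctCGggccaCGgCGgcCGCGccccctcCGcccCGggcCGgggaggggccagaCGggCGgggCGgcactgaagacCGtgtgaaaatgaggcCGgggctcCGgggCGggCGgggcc
Scube2 had 27 CG in the 250 bases before its start, more than 91.4% of the 32851 windows of that length in the RefSeq table. Lrp2 had 18 in 250 bases, of which 214 are printed, and Disp1 had 7, near the median of 6. Base composition was 73.6% G and C for Scube2, 66.4% for Lrp2 and 53.2% for Disp1, against a median of 52.4%. Windows were searched on both strands for GACCACCCA (a GLI motif, in 0.225% of all windows), TGTTTAC (a FOXA motif, 3.17%), AGGTCA (a retinoic acid receptor half-site, 14%), TCAAGGTCA (an ESRRB motif that holds AGGTCA, 0.387%) and TATAAA (12.4%). None of these letters occurred in the 3 windows. The same search over the 7 windows of the 6 genes found AGGTCA in 1 of them, a further start of Disp1. Counts per gene do not tell starts apart.

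Levels of different genes are compared per kilobase of exon. In SAG GFP+ cells Lrp2 led with 11.4 ± 1.92 CPM per kb, followed by Scube1 (6.90 ± 2.80), Disp1 (6.64 ± 0.580), Scube3 (4.30 ± 0.387), Hhat (0.372 ± 0.0601) and Scube2 (0.245 ± 0.18), each as mean ± SD of 3 libraries. In RA GFP+ cells the order was Lrp2 (10.8 ± 2.47), Scube3 (8.42 ± 2.71), Disp1 (7.86 ± 0.674), Scube1 (6.62 ± 1.06), Scube2 (0.582 ± 0.00286) and Hhat (0.476 ± 0.141). In RA GFP- cells it was Scube3 (8.61 ± 2.14), Scube1 (5.78 ± 2.23), Lrp2 (5.02 ± 0.724), Scube2 (4.67 ± 2.52), Disp1 (4.61 ± 0.410) and Hhat (0.467 ± 0.157). Neighbours in this order whose means lay closer than the larger of their SDs were Scube1 and Disp1 as well as Hhat and Scube2 in SAG GFP+, Lrp2, Scube3 and Disp1 as well as Scube2 and Hhat in RA GFP+, and Scube1, Lrp2, Scube2 and Disp1 in RA GFP-. Scube2 thus stood among the middle genes in RA GFP- and beside Hhat in both GFP+ groups. Among all tested genes its mean level per kb lay at percentile 14.4 in SAG GFP+, 22.6 in RA GFP+ and 51.4 in RA GFP-, while Lrp2 lay at 71.5, 69.9 and 53.0 in the same groups. Lengths are those of the union of GENCODE exons and may differ from the transcripts made in these cells.

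Of the 3 ligand genes, 2 were tested, and both were higher in RA GFP+ against RA GFP- and lower in SAG GFP+ against RA GFP+. Shh stood at 3.01, 8.28 and 6.35 CPM in SAG GFP+ libraries, 15.4, 11.8 and 21.2 CPM in RA GFP+ and 0.212, 0.0762 and 0.152 CPM in RA GFP-. Shh fell 2.74-fold in SAG GFP+ against RA GFP+ (log2 fold change -1.46, SE 0.36, adjusted p = 0.0128), where Disp1, Lrp2 and Hhat were not called. Ihh, a ligand known from endoderm and cartilage, stood at 0.163, 0.0375 and 0.117 CPM in SAG GFP+ and at 1.02, 0.739 and 2.76 CPM in RA GFP+, and was lower in SAG (-3.79, SE 0.87, adjusted p = 0.00825). Dhh was too low to test. Shh shares 15.67% and 12.68% of its exon bases with 2 genes on the opposite strand that had 46 counts each, against 1824 for Shh.

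Receptors and co-receptors moved in both directions. Of 7 tested, 3 were higher and 2 lower in RA GFP+ against RA GFP-, with a median log2 fold change of 0.54. With the replicate block 4 were higher and 2 lower, the further one being Cdon (log2 fold change 0.53, SE 0.09, adjusted p = 0.00132), which had missed the threshold without it (adjusted p = 0.133). In SAG GFP+ against RA GFP+, 1 was higher and 3 lower, with a median of 0.17. The receptor and target gene Ptch1 stood at 1926, 1742 and 2007 CPM in SAG GFP+, 1512, 1342 and 1026 CPM in RA GFP+ and 273, 328 and 330 CPM in RA GFP-. Ptch1 rose by 2.06 in RA GFP+ against RA GFP- on the log2 scale (SE 0.15, adjusted p = 1.23e-05), as did the ligand-binding inhibitor Hhip, by 1.83 (SE 0.30, adjusted p = 0.00166). The 3 lower genes in SAG were the co-receptors that help the ligand to bind, Cdon (-2.03, SE 0.23, adjusted p = 0.000104), Boc (-1.39, SE 0.18, adjusted p = 0.000284) and Gas1 (-1.61, SE 0.23, adjusted p = 0.000391). Boc (-1.46, SE 0.18, adjusted p = 0.000322) and Gas1 (-0.90, SE 0.22, adjusted p = 0.0153) were also the 2 lower genes in RA GFP+ against RA GFP-. Boc averaged 17.8 CPM in SAG GFP+, 46.4 CPM in RA GFP+ and 128 CPM in RA GFP-, and Gas1 24.2, 73.6 and 137 CPM. Cdon stood at 35.1, 31.8 and 32.9 CPM in SAG GFP+ against 95.1, 138 and 174 CPM in RA GFP+, so these groups did not overlap.

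Relatives of Disp1 and Hhat, listed with the proprotein convertases, moved in both directions. Of 7 tested genes of that list, 1 was higher and 3 lower in RA GFP+ against RA GFP- (median -0.25), and 2 were higher and 2 lower in SAG GFP+ against RA GFP+ (median 0.20). Disp3 stood at 1.45, 2.32 and 6.03 CPM in RA GFP+ and 12.7, 14.7 and 36.7 CPM in RA GFP-, and fell (log2 fold change -2.70, SE 0.52, adjusted p = 0.00428). Porcn, the acyltransferase that acts on WNT ligands, fell too (-1.84, SE 0.30, adjusted p = 0.00148). Furin, a proprotein convertase that cleaves Disp1 among many substrates, was the higher one. It stood at 75.0, 52.7 and 53.2 CPM in SAG GFP+ libraries, 198, 164 and 131 CPM in RA GFP+ and 54.4, 51.1 and 56.0 CPM in RA GFP-. Each RA GFP+ library lay above the other 6 for Furin, with a rise of 1.61 on the log2 scale over RA GFP- (SE 0.18, adjusted p = 0.000137) and a value of -1.44 in SAG GFP+ against RA GFP+ (SE 0.18, adjusted p = 0.000158). Of the other convertases, Pcsk5 rose in SAG GFP+ against RA GFP+ (1.502, SE 0.26, adjusted p = 0.00145) and Pcsk6 fell (-0.99, SE 0.17, adjusted p = 0.00146).

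Glypicans are cell-surface heparan sulfate proteins that bind hedgehog ligands. Of the 6 tested, 2 were higher and 0 lower in RA GFP+ against RA GFP-, with a median log2 fold change of 0.29, and 3 were higher with the replicate block. In SAG GFP+ against RA GFP+, 0 were higher and 1 lower, with a median of -0.33. Gpc3, which competes with Ptch1 for the ligand, stood at 171, 238 and 245 CPM in SAG GFP+, 579, 472 and 821 CPM in RA GFP+ and 135, 98.2 and 161 CPM in RA GFP-. Gpc3 rose by 2.25 in RA GFP+ against RA GFP- (SE 0.24, adjusted p = 9.64e-05) and fell by 1.52 in SAG GFP+ against RA GFP+ (SE 0.23, adjusted p = 0.000654), both on the log2 scale.

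Among the LDL receptor family, of 12 tested relatives of Lrp2, 4 were higher and 0 lower in RA GFP+ against RA GFP- (median 0.49), and 4 were higher and 2 lower in SAG GFP+ against RA GFP+ (median 0.23). With the replicate block, 7 were higher and 2 lower in RA GFP+ against RA GFP-, among them Lrp4 (0.80, SE 0.11, adjusted p = 0.000489, against 0.0555 without the block). Lrp1, a broad endocytic receptor, stood at 429, 367 and 491 CPM in SAG GFP+, 297, 325 and 370 CPM in RA GFP+ and 98.6, 132 and 214 CPM in RA GFP-. Lrp1 rose by 1.16 in RA GFP+ against RA GFP- on the log2 scale (SE 0.23, adjusted p = 0.00563). The sorting receptor Sorl1 fell in SAG GFP+ against RA GFP+ (-1.61, SE 0.18, adjusted p = 9.17e-05) and the reelin receptor Lrp8 rose (1.91, SE 0.30, adjusted p = 0.000881). Lrp8 stood at 118, 109 and 133 CPM in SAG GFP+ and 25.3, 25.7 and 44.8 CPM in RA GFP+, with no overlap. Lrp5, a WNT co-receptor, rose by 0.74 in RA GFP+ against RA GFP- (SE 0.15, adjusted p = 0.00527).

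Partners of Lrp2 in endocytosis moved in both directions with the sort. Of 6 tested, 2 were higher and 1 lower in RA GFP+ against RA GFP- (median 0.15; 3 higher and 2 lower with the replicate block), and 0 were higher and 2 lower in SAG GFP+ against RA GFP+ (median -0.55). Cubn, the co-receptor that binds cargo together with Lrp2 in absorptive epithelia, stood at 0.244, 0.0749 and 0.0389 CPM in SAG GFP+ libraries, 14.8, 11.1 and 6.28 CPM in RA GFP+ and 0.282, 0.457 and 0.228 CPM in RA GFP-. Each RA GFP+ library lay above the other 6. Cubn rose there by 5.03 over RA GFP- on the log2 scale (SE 0.51, adjusted p = 7.74e-05), and its log2 fold change in SAG GFP+ against RA GFP+ was -6.45 (SE 0.57, adjusted p = 2.08e-05). Dab2, a clathrin adaptor for receptors of this family, stood at 29.5, 61.4 and 77.0 CPM in SAG GFP+, 55.0, 66.5 and 72.8 CPM in RA GFP+ and 16.2, 19.3 and 13.7 CPM in RA GFP-. Like Lrp2 it was higher in both GFP+ groups than in RA GFP- (1.77, SE 0.29, adjusted p = 0.000929 for SAG and 1.98, SE 0.29, adjusted p = 0.000873 for RA). The chaperone Lrpap1 was lower in both (-0.47, SE 0.13, adjusted p = 0.0161 for SAG and -0.46, SE 0.13, adjusted p = 0.026 for RA), standing at 47.5 to 53.3 CPM in SAG GFP+, 46.8 to 52.8 CPM in RA GFP+ and 61.7 to 78.4 CPM in RA GFP-. Amn, which anchors Cubn in the membrane, fell in SAG GFP+ against RA GFP+ (-2.11, SE 0.68, adjusted p = 0.0415), but its levels were at most 1.57 CPM in these groups.

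**Figure D4:**
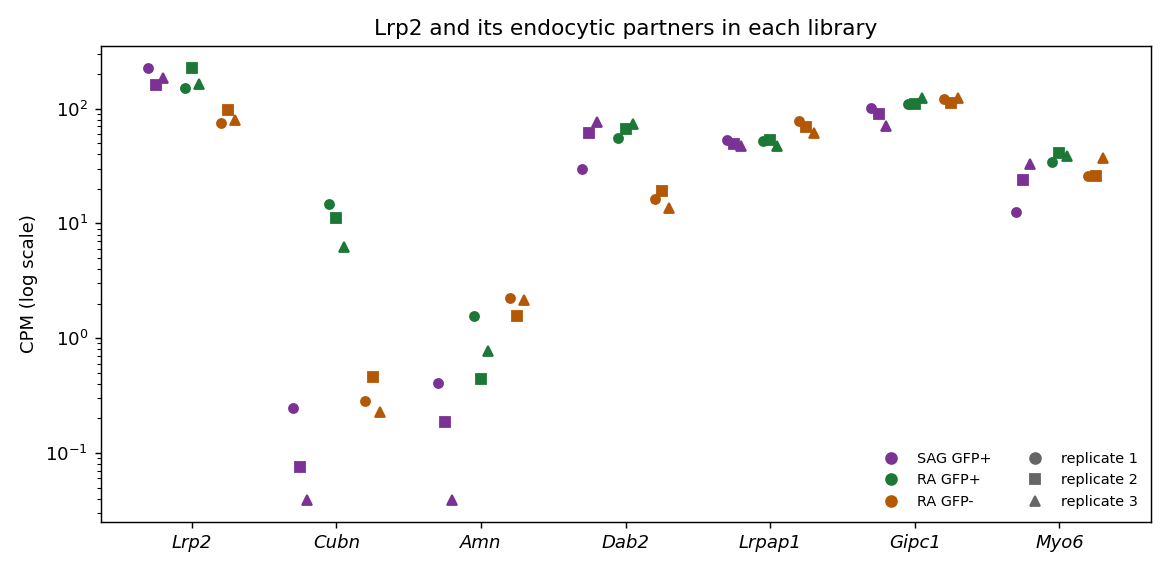
CPM of Lrp2 and its 6 listed partners in each library on a log axis, coloured by group and shaped by replicate number. Cubn lies at 6.28 to 14.8 CPM in RA GFP+ and at or under 0.457 CPM in the other groups, while Lrp2 lies between 151 and 228 CPM in both GFP+ groups.

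Lrp2 and Cubn are also known from visceral endoderm, and most tested endoderm markers, but not all, were higher in RA GFP+ than in RA GFP-. Of 10 tested endoderm markers, 6 were higher and 0 lower in RA GFP+ against RA GFP-, and 7 higher and 3 lower with the replicate block. The 3 lower ones were Amn (log2 fold change -1.24, SE 0.39, adjusted p = 0.035), Hnf4a (-1.50, SE 0.52, adjusted p = 0.0487) and Cxcr4 (-0.68, SE 0.19, adjusted p = 0.0188). In SAG GFP+ against RA GFP+, 1 of the 10 markers was higher and 6 lower. Their summed level was 38.6 to 81.4 CPM in SAG GFP+, 88.4 to 116 CPM in RA GFP+ and 41.6 to 45.6 CPM in RA GFP- libraries. Cxcr4, a chemokine receptor that neural and other cells express too, made up most of the SAG sum, at 29.3, 60.8 and 73.5 CPM in SAG GFP+, 14.5, 19.9 and 31.9 CPM in RA GFP+ and 31.2, 37.3 and 32.9 CPM in RA GFP-. Cxcr4 was the 1 marker higher in SAG GFP+ against RA GFP+ (log2 fold change 1.30, SE 0.33, adjusted p = 0.0135). Sox17 stood at 0.896, 0.337 and 0.0389 CPM in SAG GFP+, against 34.6, 49.0 and 55.3 CPM in RA GFP+, and Afp had 0 counts in SAG GFP+ and RA GFP-. Apoa1 had 0 counts in SAG GFP+, 3 in RA GFP+ and 3, 0 and 3 in the RA GFP- libraries. Ttr had 2 counts in SAG GFP+, 18, 17 and 3 in the RA GFP+ libraries and 0 in RA GFP-. Neither was tested. The list shares Cubn and Amn with the partners of Lrp2, and Apob and Rbp4 with its cargo, so these counts are not separate from each other. Lrp2 stood at 162 to 225 CPM in SAG GFP+, where Sox17 was at most 0.896 CPM and Cubn at most 0.244 CPM, against 151 to 228 CPM in RA GFP+. The 7 floor plate markers were higher, 7 of 7, in RA GFP+ against RA GFP-. They include Foxa2, whose reporter set the sort, and Shh, given above as a ligand, and summed to 884 to 1200 CPM in SAG GFP+, 762 to 1219 CPM in RA GFP+ and 187 to 266 CPM in RA GFP-. Of 4 ventral progenitor markers, 3 were higher and 0 lower in RA GFP+ against RA GFP- (4 with the replicate block), and 4 of 4 were higher in SAG GFP+ against RA GFP-. They summed to 606 to 712 CPM in SAG GFP+, 152 to 253 CPM in RA GFP+ and 9.52 to 15.9 CPM in RA GFP-. Of 5 neural crest markers, 2 were higher and 2 lower in RA GFP+ against RA GFP-, and the list summed to 32.6 to 49.7 CPM in SAG GFP+, 43.9 to 57.5 CPM in RA GFP+ and 23.0 to 24.96 CPM in RA GFP-. Of 3 tested node and notochord markers, 1 was higher and 0 lower (2 higher with the block), with sums of 15.3 to 127, 17.3 to 30.4 and 8.08 to 8.83 CPM in the same groups. The 127 CPM is that of SAG GFP+ replicate 1, where T, a gene of this list, stood at 110 CPM, and replicates 2 and 3 summed to 16.3 and 15.3 CPM. Of 9 mesenchyme markers, 5 were higher and 1 lower in RA GFP+ against RA GFP- (6 and 1 with the block). They summed to 29.0 to 41.7 CPM in SAG GFP+, 56.2 to 63.0 CPM in RA GFP+ and 16.2 to 21.6 CPM in RA GFP-. The part of these cell types in the Lrp2 and Disp1 differences was not tested.

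Lrp2 carries many proteins in epithelia, and genes of 8 of them were listed. Of 7 tested, 0 were higher and 6 lower in SAG GFP+ against RA GFP+, with a median log2 fold change of -3.39. In RA GFP+ against RA GFP-, 4 were higher and 1 lower, with a median of 1.37, and 5 higher and 2 lower with the replicate block. Bmp4, a dorsalising signal, stood at 0.611, 0.112 and 0.506 CPM in SAG GFP+, 58.2, 42.4 and 43.2 CPM in RA GFP+ and 22.5, 13.03 and 10.5 CPM in RA GFP-. Folr1, the folate receptor, stood at 0.774, 0.337 and 0.467 CPM in SAG GFP+, 6.39, 11.0 and 4.78 CPM in RA GFP+ and 37.6, 32.1 and 22.3 CPM in RA GFP-. Bmp4 fell by 6.87 in SAG GFP+ against RA GFP+ (SE 0.46, adjusted p = 3.47e-06), and Folr1 fell by 3.81 (SE 0.41, adjusted p = 6.36e-05), both on the log2 scale. Clu, an extracellular chaperone, fell by 3.39 (SE 0.32, adjusted p = 2.76e-05).

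**Figure D5:**
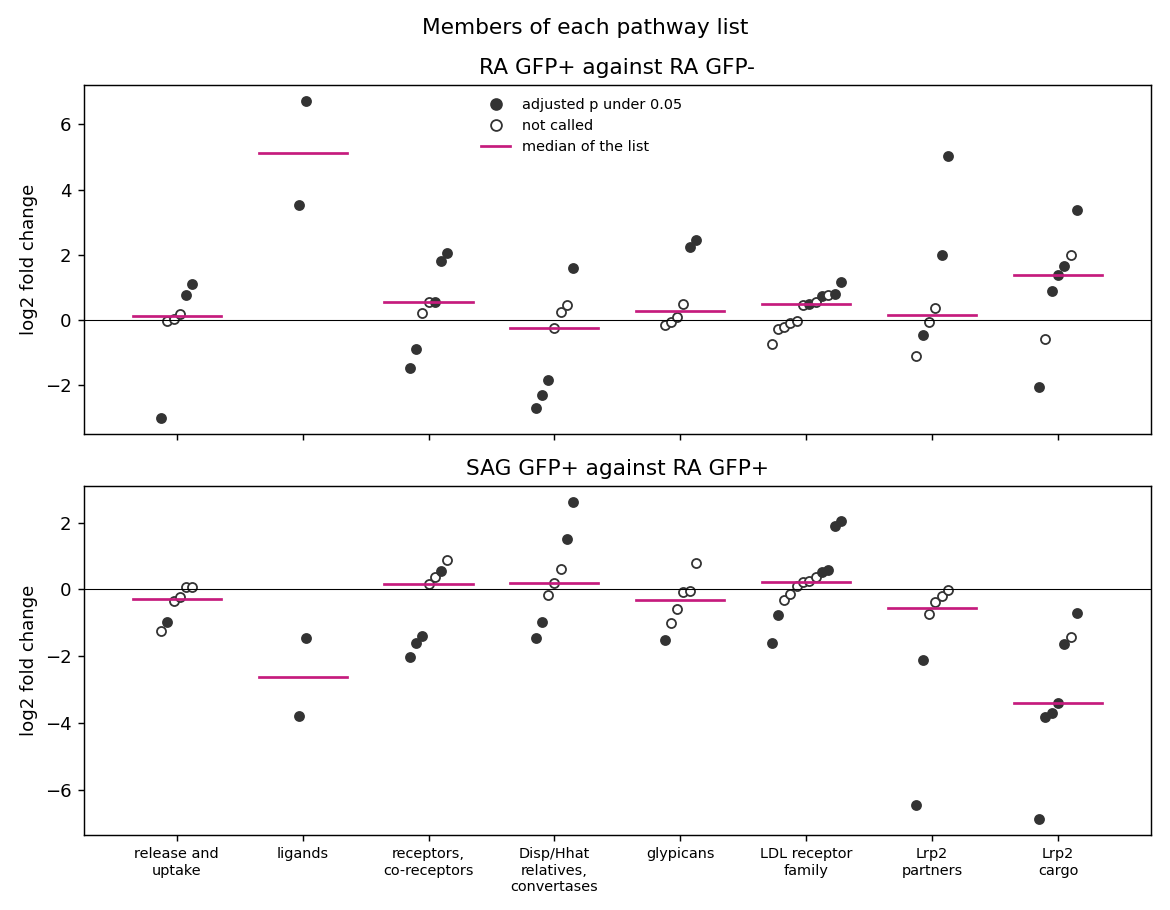
Log2 fold changes of the tested genes of each list in RA GFP+ against RA GFP- (upper panel) and SAG GFP+ against RA GFP+ (lower panel), with filled points where the adjusted p was under 0.05 and a bar at the list's median. The cargo list lies lowest in the lower panel, with a median of -3.39, while the 6 release and uptake genes have medians of 0.11 and -0.30.

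Likeness across the 9 libraries was measured as Pearson's correlation of log2 CPM with 11175 other genes of at least 5 CPM on average. These values are a description, since the 9 libraries fall into 3 groups that all genes share. Disp1 was most like Ank (r = 0.987), Lpp (0.982) and Hunk (0.975). Lrp2 was most like Pdzd2 (0.982), Tirap (0.981) and Sema5a (0.972). Pdzd2 averaged 37.8 CPM in SAG GFP+, 33.1 CPM in RA GFP+ and 10.1 CPM in RA GFP-. Scube2 was most like Abcb10 (0.984), Zbtb11 (0.980) and Tfcp2l1 (0.973), the last a pluripotency factor of the marker list above that averaged 3.64 CPM in SAG GFP+, 11.7 CPM in RA GFP+ and 100 CPM in RA GFP-. Scube3 was most like Hoxc4 (0.984), Zfpm1 (0.965) and Mecom (0.958). Hoxc4, a homeobox gene of cervical levels, averaged 3.50 CPM in SAG GFP+, 22.0 CPM in RA GFP+ and 27.3 CPM in RA GFP-. Scube1 was most like Siae (0.952), and Hhat most like Gm6560 (0.946). Among the 6 genes themselves, the highest correlation was that of Disp1 with Lrp2 (r = 0.881), and the lowest that of Scube2 with Lrp2 (r = -0.773), over the same 9 libraries.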

How the data were processed

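Poly(A) RNA of 9 libraries was made with a directional kit, per the labels' protocols. The authors deposited raw counts per Ensembl mouse gene ID, 1 column per library. The submitters' processing notes name featureCounts (Subread 1.6.2), Trim Galore 0.5.0 and the aligner Bowtie2 2.3.4.1, with the build GRCm38. Not given in the sources used here: the strand setting, the annotation release and the handling of reads with several matches. Total counts ran from 25281871 to 29763765.

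Symbols, coordinates (1-based) and exon lengths came from GENCODE M21 on the same build, which matched 54495 of 54532 IDs. CPM values are counts over the TMM-scaled total of tested genes. The test was edgeR's quasi-likelihood test (edgeR 4.0.16 in R 4.3.3), as 1 fit of the 9 libraries with a mean per group, for the 16772 genes kept by filterByExpr at a minimum count of 10. A gene was called when its Benjamini-Hochberg adjusted p over these genes was under 0.05. The SE is the log2 fold change divided by the square root of F, and 95% intervals use the fit's degrees of freedom. The fit and DESeq2 1.42.0, an alternative, were tested on simulated data. Other alternatives changed the size factors, the low-count filter, the libraries fitted and the replicate block, or left out 1 library. Whether same-numbered libraries came from separate cultures is not stated, so p-values measure the spread between these samples.

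The 6 genes, the gene lists and the tests were chosen with earlier results of these data known. Named from each pathway list are Shh and, per comparison, the 3 called genes with the smallest adjusted p. Each marker list gives its 2 most abundant genes and Foxa2. For each of the 6 genes the 3 genes of at least 5 CPM with the highest correlation of log2 CPM (prior count 2) are named. Not all of these are printed, 1 listed gene is not reported here and was left out of its list's counts, and genes named outside the rule were chosen after their values were seen. Deviations from the group means were correlated for same-numbered RA GFP+ and RA GFP- libraries, with r of 0.273, 0.307 and 0.347 over genes, each over 0.1, so the numbers pair these libraries. The main fit has no block, so its p-values, SEs and counts do not use the pairing, and the fit with the block is given as an alternative. SAG GFP+ libraries did not pair this way.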

Additional observations from a re-analysis of the deposited data

How the results depend on the processing

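The 18 fold changes of the 6 genes were recomputed under the alternatives, 270 values in all. Of these, 252 kept their direction and their side of the threshold, 4 passed it where the main value had not, 0 lost a call and 14 changed sign. The 14 sign changes belong to values of Scube1, Scube3, Hhat and Lrp2 that were not called in either setting. The 4 that passed are those of Scube2 in SAG GFP+ against RA GFP+. They are -1.25 both in DESeq2 and without the low-count filter, -2.004 without SAG GFP+ replicate 1 and -1.24 without RA GFP- replicate 1. All values of this fold change with 1 library left out ranged from -2.004 to -0.92, the last of which did not pass. With 1 library left out, log2 fold changes in RA GFP+ against RA GFP- ranged from -0.035 to 0.524 for Scube1, from -0.321 to 0.179 for Scube3 and from -0.227 to 0.249 for Hhat. In SAG GFP+ against RA GFP+ they ranged from -0.163 to 0.381 for Scube1 and from -0.040 to 0.277 for Lrp2. With the replicate number as a block in the 6 RA libraries, which it pairs, 5240 genes were called in RA GFP+ against RA GFP-, in place of 2838. The replicate block changed no call of the 6 genes. Same-numbered SAG GFP+ and RA GFP+ libraries deviated together less (r = 0.111, -0.082 and 0.182) and share only a number. Fitted alone, those 6 libraries gave 4552 calls with the block and 4096 without it. With the block over all 9 libraries, 5368 genes were called there, in place of 4117. In SAG GFP+ against RA GFP- that fit called 6178, in place of 4787. The block turned the sign of Scube1 in SAG GFP+ against RA GFP+, at -0.00806 in 6 libraries and -0.0259 in 9. The count of called genes in RA GFP+ against RA GFP- ran from 1783 (without RA GFP+ replicate 2) to 3368 when 1 library was left out. The cause of these shifts was not tested. Depth limits Scube2 in SAG GFP+, with 13 to 46 counts per library, and Hhat.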

Other observations

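Of the 6 genes, 2 followed the replicate number within every group. Scube1 and Scube3 each had their lowest library in replicate 1 and their highest in replicate 3 in SAG GFP+, RA GFP+ and RA GFP-. The glypican gene Gpc6 did so as well, and the share of all tested genes with this order was not counted. For Scube1 the highest library stood at 88.1, 76.7 and 79.9 CPM in these groups and the lowest at 36.5, 56.4 and 36.3 CPM. Disp1 did not do so, with its highest library in replicate 2 in both RA groups. The labels call the replicates biological and give no date or batch for them.

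Disp2, a relative of Disp1, was higher in SAG GFP+ against RA GFP+ (log2 fold change 2.62, SE 0.51, adjusted p = 0.00314), at 1.51, 2.36 and 2.80 CPM in SAG GFP+, 0.392, 0.504 and 0.174 CPM in RA GFP+ and 0.988, 2.48 and 1.83 CPM in RA GFP-. The 6 neuron markers summed to 342 to 503 CPM in SAG GFP+, 77.3 to 95.5 CPM in RA GFP+ and 290 to 424 CPM in RA GFP-, and 5 of 6 were higher and 0 lower in SAG GFP+ against RA GFP+. Their part in the Disp2 difference was not tested.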
